A study of Danio rerio with 12 samples.

Results

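Expression of 9 endothelial and vascular endothelial growth factor (VEGF) signalling genes was measured in white skeletal muscle of zebrafish, as a readout of the vessels in this tissue under endurance exercise. The genes were chosen by symbol: the ligand genes vegfaa (ENSDARG00000103542) and vegfab (ENSDARG00000034700), and the receptor genes kdr (ENSDARG00000017321), kdrl (ENSDARG00000105215), flt1 (ENSDARG00000019371) and flt4 (ENSDARG00000104453). The others were the junction gene cdh5 (ENSDARG00000075549) and the Tie receptor genes tie1 (ENSDARG00000004105) and tek (ENSDARG00000028663). Each of the 9 symbols had 1 row among the 31962 genes counted. RNA was sequenced from 12 libraries in 4 groups of 3: exercised Gr mutants, non-exercised Gr mutants, exercised wild-type fish and non-exercised wild-type fish. Gr mutants came from the gr s357 line, which carries a point mutation in the part of the glucocorticoid receptor that binds DNA (this receptor mediates the action of cortisol on genes), and wild-type fish were 3 months old before housing and training. Exercised fish swam at 0.4 m/s during 6 h a day, 5 days a week, over 4 weeks, and non-exercised fish stayed at 0.1 m/s for the same time. Each exercise level had its own swim tunnel, so tunnel and exercise cannot be told apart. Wild-type fish came from the Leiden facility, and the mutant line was made available by another laboratory. The paper reports that Gr mutants were bigger than wild-type fish. Genotype cannot be told apart from body size or from other differences between these sources.

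The libraries held between 7688323 and 13894240 counts on genes, with the lowest totals in exercised Gr mutant replicates 2 and 3. Levels are given as CPM, counts relative to the library total after correction by trimmed means (TMM), and they are compared between libraries but not between genes, because no transcript lengths were used. As a check of the tissue, 17 genes of fast muscle summed to between 170600 and 398700 CPM per library. A list of 21 endothelial genes other than the 9 summed to between 83.8 and 154.9 CPM. Transcripts of nr3c1, which encodes the glucocorticoid receptor, do not check the genotype, since the line carries a point mutation. Their log2 difference between Gr mutants and wild-type fish was 0.13 in exercised and 0.31 in non-exercised fish (adjusted p = 0.792 and 0.569, edgeR). Non-exercised Gr mutant replicate 3 differed from replicates 1 and 2 in leukocyte and connective tissue markers, described at the end. For leukocyte markers, replicates 1 and 2 were the highest of the study, at 1722 and 1561 CPM. Replicate 3, at 281 CPM, lay among the other libraries.

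VEGF-A is secreted by muscle fibres and other cells and binds receptor tyrosine kinases on endothelial cells, where it drives the sprouting and survival of vessels. Zebrafish carry duplicate VEGF-A genes and, in kdr and kdrl, a pair of genes for receptors of the VEGFR2 type. Angiopoietins act on endothelial cells through the Tie receptors, which steady mature vessels, and VE-cadherin joins endothelial cells at their junctions. In mammals, VEGF-A in working muscle is known as a signal for capillary growth, and it is induced by hypoxia-inducible factors.

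None of the 9 genes passed the threshold of an adjusted p of 0.05 in any of the comparisons below by the quasi-likelihood test of edgeR, with p-values adjusted over all genes by the Benjamini-Hochberg procedure. With exercise in wild-type fish, 0 of 9 were called, against a background of 0.37% of all genes tested, and with exercise in Gr mutants 0 of 9, against 0.0%. Between Gr mutants and wild-type fish, 0 of 9 were called in non-exercised fish (background 0.233%) and 0 of 9 in exercised fish (background 3.02%). At backgrounds this low, counts of 0 among 9 genes say nothing particular about them. At an unadjusted p under 0.05, 0 of 9 passed for exercise in wild-type fish (13.9% of all genes) and 0 of 9 for exercise in Gr mutants (10.5%). At that level 1 of 9 (tie1) passed between genotypes in non-exercised fish (17.2%) and 1 of 9 (vegfab) in exercised fish (19.5%). DESeq2 called 0 of 9 for exercise in wild-type fish (1.57% of all genes), 0 of 9 for exercise in Gr mutants (0.496%), 0 of 9 between genotypes in non-exercised fish (2.65%) and 1 of 9 (vegfab) in exercised fish (3.8%). Here and below, DESeq2 shares are of all genes it gave a p-value, with no count filter set. Between exercised genotypes these were 25681 genes, against 14106 tested in edgeR, so shares of both tests have different bases.

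The libraries of both groups did not overlap for 0 of 9 genes with exercise in wild-type fish (20.5% of all genes tested) and for 1 of 9 with exercise in Gr mutants (16.2%). Between genotypes this held for 1 of 9 genes in non-exercised fish (22.0%) and 1 of 9 in exercised fish (25.4%). These genes were kdr, tie1 and vegfab, and a count of 1 in 9 lies below each background. Over the 9 genes, the median log2 difference was 0.13 with exercise in wild-type fish and -0.11 with exercise in Gr mutants, where the medians of all genes were 0.03 and -0.02. Between Gr mutants and wild-type fish it was 0.10 without exercise and -0.24 with exercise, where the medians of all genes were 0.05 and -0.01. In bulk tissue, fewer endothelial cells and less RNA of these genes per cell cannot be told apart.

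**Figure D1:**
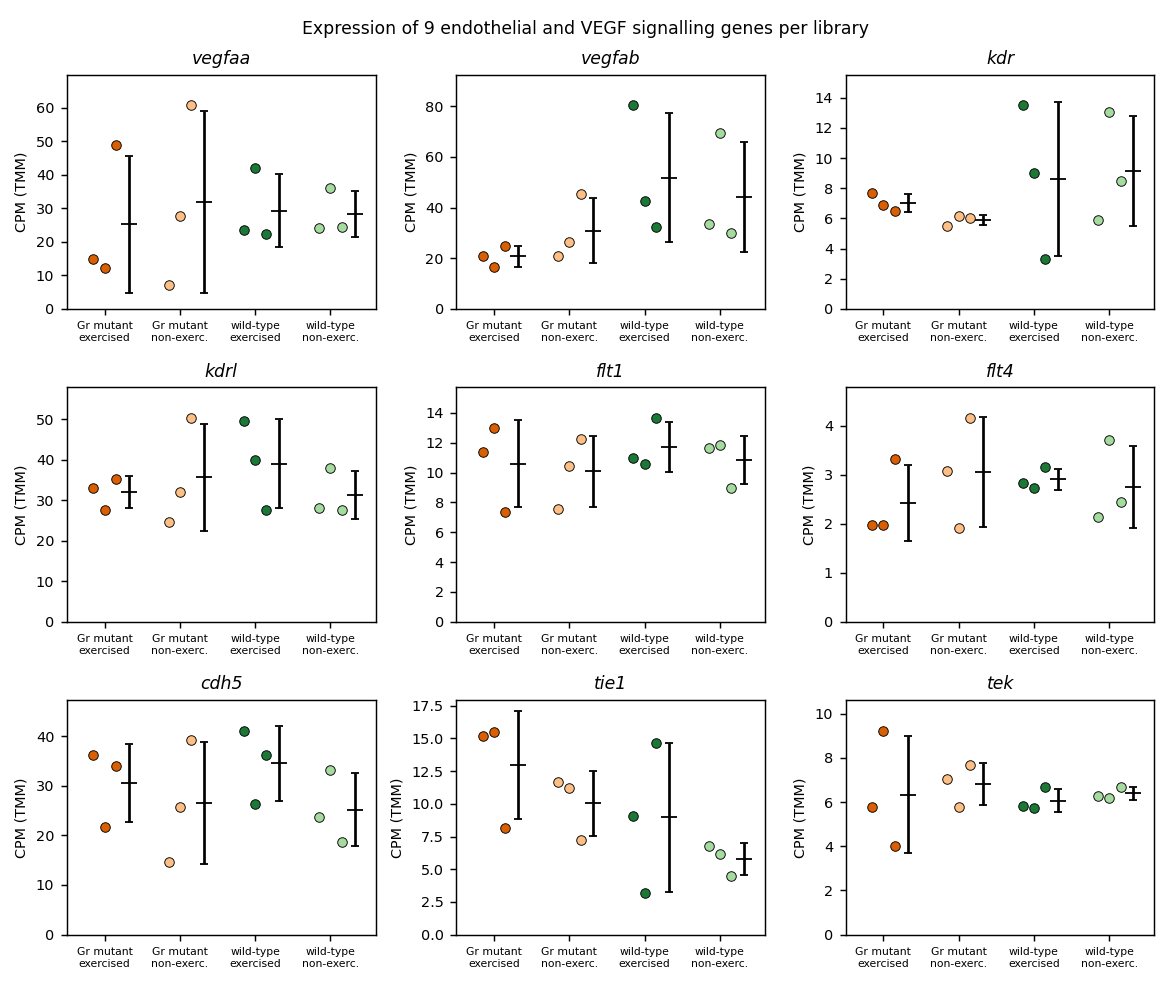
Expression in CPM (TMM scaling, axis from 0) of the 9 genes in each of the 12 libraries, with 3 points per group and a bar for the mean ± SD beside them. The 3 exercised Gr mutant libraries lie between 16.5 and 24.95 CPM for vegfab, below all 3 exercised wild-type libraries, while vegfaa spans 6.97 to 60.8 CPM within non-exercised Gr mutants alone.

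The ligand gene vegfab was at its lowest in exercised Gr mutants. Its libraries held 20.9, 16.5 and 24.95 CPM in exercised Gr mutants, against 80.5, 42.6 and 32.4 CPM in exercised wild-type fish. Every exercised mutant library lay below every exercised wild-type library, and the wild-type libraries themselves differed by 2.48-fold. The log2 difference was -1.37 (standard error 0.360, 95% interval -2.19 to -0.54), a level of 0.388 times that of wild-type fish. Its p in edgeR was 0.00472 before and 0.0795 after adjustment, so the call was missed. At an adjusted p under 0.1, vegfab alone of the 9 passed, where 7.93% of all genes did. DESeq2 gave an adjusted p of 0.00709, and edgeR without exercised wild-type replicate 3 gave 0.0397. The other omissions in edgeR gave adjusted p-values of 0.145 and 0.14 without exercised wild-type replicates 1 and 2. They gave 0.176, 0.227 and 0.166 without exercised Gr mutant replicates 1, 2 and 3. An edgeR fit of all 12 libraries gave 0.128. Leaving out exercised wild-type replicate 1, the library with the highest vegfab level, brought the log2 difference to -0.86.

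The same libraries differed in other lists, whose part in the vegfab value was not tested. The fast muscle list summed to 282200 to 398700 CPM in exercised Gr mutants, against 170600 to 280700 CPM in exercised wild-type fish. These ranges do not overlap after TMM scaling. With DESeq size factors in place of TMM they overlap, at 278000 to 394200 CPM, against 173100 to 283900 CPM. Of the 15 fast muscle genes tested, 11 had a positive and 4 a negative difference. Past the adjusted threshold 1 rose and 2 fell, where 0.652% of all genes rose and 2.37% fell. With 1 library left out, between 0 and 2 rose and between 0 and 2 fell. The list of 21 other endothelial genes summed to 116 to 141 CPM in exercised Gr mutants, against 108 to 144 CPM in exercised wild-type fish. These endothelial ranges overlap. The sums of the mural cell list did not overlap, at 136 to 175 CPM in exercised Gr mutants, against 179 to 226 CPM in exercised wild-type fish. Of its 10 genes tested, 4 had a positive and 6 a negative difference. The sum includes rgs5a, at a mean of 30.8 CPM in exercised Gr mutants, against 68.0 CPM in exercised wild-type fish. A list of 11 slow and red muscle genes summed to 2116, 1718 and 771 CPM in exercised Gr mutants, against 5280, 976 and 1238 CPM in exercised wild-type fish. Exercised wild-type replicate 1 was thus the highest of its group both for vegfab and for slow and red muscle genes. In exercised Gr mutants this did not hold: replicate 3 had the lowest slow and red muscle sum and the highest vegfab, at 24.95 CPM. In non-exercised fish this list summed to 2127, 2718 and 3017 CPM in Gr mutants, against 3152, 3614 and 796 CPM in wild-type fish. In both non-exercised groups, the library with the highest slow and red muscle sum also held the most vegfab. The connective tissue list lay apart between the exercised groups, at 6601 to 8819 CPM in Gr mutants, against 3130 to 4142 CPM in wild-type fish. Of its 11 genes, 2 rose, where 0.652% of all genes did, and at most 1 with any library left out. Of 7 erythrocyte genes tested, 0 passed and 6 were lower in exercised Gr mutants at an unadjusted p under 0.05 (11.6% of all genes), with a median of -1.83, and exercised wild-type replicate 2 held the most of these transcripts.

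In non-exercised fish, vegfab held 21.0, 26.3 and 45.3 CPM in Gr mutants, against 33.4, 69.3 and 30.0 CPM in wild-type fish. These groups overlapped, with a log2 difference of -0.51 (95% interval -1.45 to 0.43, adjusted p = 0.578, edgeR). It was -0.04 without non-exercised wild-type replicate 2, the highest of its group. Averaged over both exercise levels in a fit of all 12 libraries, vegfab differed by -0.92 in Gr mutants (standard error 0.295, 95% interval -1.56 to -0.28, adjusted p = 0.0729, edgeR), where 8.59% of all genes were called and 0 of the 9. In this averaged comparison vegfab alone of the 9 passed at an unadjusted p under 0.05 (26.2% of all genes), at an adjusted p under 0.1 (15.9%) and with DESeq2 (7.52%). The averaged difference passed the threshold with DESeq2 (adjusted p = 0.0261), with library totals in place of TMM (0.0441) and without non-exercised Gr mutant replicate 3 (0.0338). Within a genotype, exercised and non-exercised libraries overlapped for vegfab: the log2 difference with exercise was -0.56 in Gr mutants (95% interval -1.31 to 0.18) and 0.24 in wild-type fish (95% interval -0.74 to 1.22).

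The other VEGF-A gene, vegfaa, varied more between fish of a group than between groups. It held 14.8, 12.2 and 48.8 CPM in exercised Gr mutants and 6.97, 27.6 and 60.8 CPM in non-exercised Gr mutants. In wild-type fish it held 23.6, 42.0 and 22.4 CPM with exercise and 24.25, 36.1 and 24.3 CPM without. The non-exercised mutants thus spanned an 8.71-fold range, against 1.49-fold in non-exercised wild-type fish. Its within-group SD, 0.996 on the log2 scale, was larger than that of 92.7% of all genes tested, whose median was 0.419. The 4 pairwise log2 differences of vegfaa lay between -0.31 and 0.17. Exercise gave -0.31 in Gr mutants (95% interval -2.01 to 1.38) and 0.06 in wild-type fish (95% interval -0.61 to 0.73). The genotypes differed by -0.24 with exercise and 0.17 without, with 95% intervals of -1.40 to 0.93 and -1.27 to 1.62.

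The receptor gene kdrl, whose product is the main signalling receptor for VEGF-A in zebrafish vessels, had a within-group SD close to the median of all genes, at 0.371 on the log2 scale. Its levels were 33.1, 27.5 and 35.4 CPM in exercised Gr mutants and 24.6, 32.1 and 50.3 CPM in non-exercised Gr mutants. Exercised wild-type libraries held 49.5, 39.8 and 27.6 CPM and non-exercised wild-type libraries 28.2, 38.1 and 27.5 CPM. Groups overlapped in every comparison. With exercise, the log2 difference was -0.15 in Gr mutants (95% interval -0.84 to 0.53) and 0.33 in wild-type fish (95% interval -0.26 to 0.91, adjusted p = 0.6, edgeR).

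Its paralogue kdr had a narrow range in Gr mutants and a wide one in wild-type fish. Exercised Gr mutants held 7.66, 6.92 and 6.52 CPM, against 5.50, 6.19 and 6.00 CPM in non-exercised Gr mutants. Although these libraries do not overlap, the log2 difference was 0.25 (standard error 0.234, adjusted p = 0.724, edgeR), and it was -0.12 with library totals in place of TMM. Exercised wild-type fish held 13.5, 9.04 and 3.30 CPM, against 5.87, 13.1 and 8.49 CPM in non-exercised wild-type fish. The wild-type groups overlapped throughout, and exercised wild-type replicates differed by 4.09-fold, against 1.18-fold in exercised Gr mutants. Without exercise, kdr was at -0.62 in Gr mutants relative to wild-type fish (95% interval -1.33 to 0.10, unadjusted p = 0.0822, adjusted p = 0.354, edgeR).

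The gene flt1 encodes a receptor that can trap VEGF-A, and it was even across the study. It averaged 10.6 ± 2.92 CPM in exercised Gr mutants, 10.1 ± 2.38 CPM in non-exercised Gr mutants, 11.7 ± 1.67 CPM in exercised and 10.8 ± 1.61 CPM in non-exercised wild-type fish (SD, n = 3 each). Its 4 pairwise log2 differences lay between -0.19 and 0.13, and its within-group SD was larger than that of 27.5% of genes tested. The gene flt4, for a receptor of Vegfc that marks veins and lymphatic vessels, had the fewest counts of the 9, with 402 in all and between 12 and 52 per library. It ranged from 1.98 to 3.33 CPM in exercised Gr mutants, 1.91 to 4.16 CPM in non-exercised Gr mutants, 2.72 to 3.15 CPM in exercised and 2.13 to 3.71 CPM in non-exercised wild-type fish. Its 95% interval for exercise in Gr mutants reached from -1.22 to 0.58.

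The junction gene cdh5 encodes VE-cadherin, the adhesion protein of endothelial junctions and a defining marker of these cells. Its libraries held 36.2, 21.6 and 34.0 CPM in exercised Gr mutants and 14.5, 25.7 and 39.2 CPM in non-exercised Gr mutants. Wild-type fish had 41.0, 26.2 and 36.2 CPM with exercise and 23.7, 33.1 and 18.6 CPM without. The means were thus higher with exercise in both genotypes, while the groups overlapped in both. The log2 difference with exercise was 0.21 in Gr mutants (95% interval -0.64 to 1.06, adjusted p = 0.865) and 0.47 in wild-type fish (95% interval -0.15 to 1.09, adjusted p = 0.478), both from edgeR. Averaged over genotypes it was 0.34 (standard error 0.250, adjusted p = 0.565, edgeR). The intervals allow a rise of up to 2.12-fold in wild-type fish.

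The Tie receptor gene tie1 encodes an orphan receptor that modulates signalling by its partner Tie2. In non-exercised fish it held 11.7, 11.2 and 7.20 CPM in Gr mutants, against 6.81, 6.18 and 4.45 CPM in wild-type fish, with every mutant library above every wild-type one. The log2 difference was 0.81 (standard error 0.288, 95% interval 0.15 to 1.47), and its p in edgeR was 0.0221 before and 0.217 after adjustment. The leukocyte list, described at the end, was at 1722, 1561 and 281 CPM in the same mutant libraries, against 301, 165 and 294 CPM in the wild-type ones. The library with the lowest tie1 level of the mutants was also the one with the lowest leukocyte sum, and the part of leukocytes in the tie1 value was not tested. Without that library, replicate 3, the log2 difference was 0.98 (adjusted p = 0.0975, edgeR).

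In exercised fish, tie1 held 15.2, 15.5 and 8.18 CPM in Gr mutants, against 9.06, 3.21 and 14.6 CPM in wild-type fish. These groups overlapped, with a log2 difference of 0.47 (95% interval -0.65 to 1.59, adjusted p = 0.656, edgeR). Averaged over exercise levels, tie1 was at 0.66 in Gr mutants relative to wild-type fish (standard error 0.311, 95% interval -0.01 to 1.34, adjusted p = 0.2, edgeR). With exercise, the log2 difference was 0.35 in Gr mutants (95% interval -0.39 to 1.102) and 0.65 in wild-type fish (95% interval -0.46 to 1.76), and the libraries overlapped in both genotypes. The gene tek encodes Tie2, the receptor of the angiopoietins, and varied little in wild-type fish, at 5.73 to 6.68 CPM with exercise and 6.18 to 6.70 CPM without. In Gr mutants it ranged from 4.02 to 9.23 CPM with exercise and 5.78 to 7.66 CPM without. Its 4 pairwise log2 differences lay between -0.11 and 0.10.

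**Figure D2:**
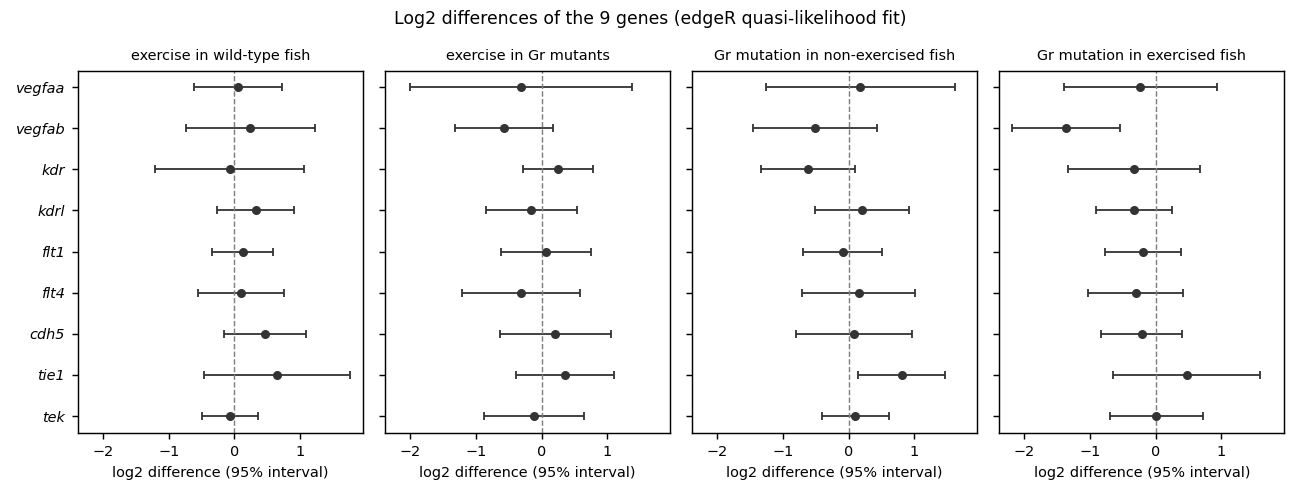
Log2 differences of the 9 genes with 95% intervals from edgeR's quasi-likelihood fit, for exercised minus non-exercised fish in each genotype and Gr mutant minus wild-type fish at each exercise level. Only the intervals of vegfab in exercised fish (-2.19 to -0.54) and of tie1 in non-exercised fish (0.15 to 1.47) leave out 0, and neither gene passed the adjusted threshold.

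Whether exercise acted differently in Gr mutants and wild-type fish was tested as an interaction over all 12 libraries. No gene of the 9 was called, against 0.0% of all genes in edgeR. At an unadjusted p under 0.05, 0 of 9 passed (8.39% of all genes), and DESeq2 called 0 of 9 (0.156%). The interaction was -0.80 for vegfab (standard error 0.587, 95% interval -2.08 to 0.47, adjusted p = 0.769, edgeR), and adjusted p-values of the 9 lay between 0.769 and 0.991. Of the 9, 8 had a negative interaction, with a median of -0.28, where the median of all genes was -0.03. With 1 library left out, between 0 and 5 of the 9 were positive, and their median lay between -0.49 and 0.05. Averaged over genotypes, exercise called 0 of 9 genes, against 1.33% of all genes in edgeR, with 0 at an unadjusted p under 0.05 (15.7% of all genes) and 0 by DESeq2 (2.69%). The largest averaged difference with exercise was that of tie1, at 0.50 (95% interval -0.17 to 1.17, adjusted p = 0.472, edgeR).

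Across the 12 libraries, genes of the set varied together to different degrees. Pearson's r of log2 CPM was 0.74 between kdrl and cdh5 and 0.73 between vegfab and kdrl, and the value of vegfab with kdrl was 0.93 after group means were subtracted. It was -0.59 between vegfaa and tie1, where libraries with much vegfaa had little tie1. These values are descriptions of 12 libraries that share depth and tissue make-up, and they include the highest and the lowest among 36 pairs. In all, 12092 genes, the 9 included, were compared with the mean standardised level of the 7 receptor and junction genes. The closest outside the 9 was atp6v1e1a (ENSDARG00000014085), with an r of 0.84 over 12 libraries. The gene atp6v1e1a is annotated as a subunit of the vacuolar proton pump. Among the closest was also plce1, with an r of 0.83, and neither of these genes was in the endothelial lists.

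The wider pathway was followed through lists of related genes. Of 11 other VEGF ligand and co-receptor genes, 8 were in the tables and between 6 and 7 were tested, and 0 rose and 0 fell in any of the 7 comparisons of edgeR's test. The co-receptor gene nrp2b held 17.97, 19.1 and 18.4 CPM in exercised Gr mutants, against 14.4, 15.3 and 14.6 CPM in non-exercised Gr mutants. These libraries do not overlap, as held for 16.2% of all genes tested, and the log2 difference was 0.32 (standard error 0.215, adjusted p = 0.613, edgeR). For nrp1a, another co-receptor gene, groups overlapped in every pairwise comparison. Of 7 genes of angiopoietins and Tie partners, between 2 and 3 were tested, and 0 passed. For ptprb, groups overlapped in every pairwise comparison. The Tie2 ligand gene angpt1 held 1.48, 1.98 and 0.693 CPM in exercised Gr mutants, against 5.95, 3.98 and 4.05 CPM in exercised wild-type fish. These groups lie apart, as held for 25.4% of all genes tested, with a log2 difference of -1.80 (standard error 0.395, adjusted p = 0.0511, edgeR). In non-exercised fish, angpt1 was at 1.77, 1.97 and 2.96 CPM in Gr mutants, against 1.19, 2.98 and 2.31 CPM in wild-type fish, and the p of the interaction in edgeR was 0.00899 before and 0.49 after adjustment.

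Of 24 other genes of endothelial identity, 21 were in the tables and 19 were tested. In non-exercised fish, 17 of the 19 had a positive difference in Gr mutants, with a median of 0.49 where all genes had 0.05, and 0 passed the threshold (5 higher at an unadjusted p under 0.05, against 9.91% of all genes). Their sum was 135.1, 114 and 155 CPM in non-exercised Gr mutants, against 107, 106.5 and 83.8 CPM in non-exercised wild-type fish. In the same comparison the 9 genes had a median of 0.10. Averaged over exercise levels, 1 of 19 rose in Gr mutants and 0 fell, against 8.59% of all genes called. This was erg, an ETS transcription factor of endothelial cells, at 4.20, 5.11 and 3.74 CPM in exercised and 4.14, 2.14 and 2.86 CPM in non-exercised Gr mutants. Wild-type fish held 1.91, 0.972 and 2.25 CPM with exercise and 2.47, 1.65 and 1.37 CPM without. Its averaged log2 difference was 1.03 (standard error 0.259, adjusted p = 0.0304, edgeR), and the call was kept in 4 of 12 omissions of a library. The tight junction gene cldn5b held 29.1, 17.2 and 32.2 CPM in exercised wild-type fish, against 12.6, 9.78 and 7.18 CPM in non-exercised wild-type fish. These groups lie apart, as held for 20.5% of all genes tested, with a log2 difference of 1.42 (standard error 0.305, adjusted p = 0.111, edgeR). For fli1a, groups overlapped in every pairwise comparison. With exercise in wild-type fish, 15 of the 19 endothelial genes had a positive difference, with a median of 0.20 where all genes had 0.03, and 0 passed (3 higher at an unadjusted p under 0.05, against 7.32% of all genes). That median lay between 0.07 and 0.32 with 1 library left out. With exercise in Gr mutants, 8 of the 19 had a positive and 11 a negative difference. The median there was -0.03, where all genes had -0.02.

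Among 13 genes of arterial, venous and lymphatic vessels, 11 were tested between genotypes averaged over exercise levels, and 2 fell and 0 rose in Gr mutants, where 5.02% of all genes fell and 3.57% rose. Of the 11, 7 had a positive and 4 a negative difference, with a median of 0.08, where all genes had 0.06. The Notch ligand gene dll4, which marks arteries and sprout tips, held 14.5, 24.9 and 34.7 CPM in exercised and 9.04, 7.23 and 18.2 CPM in non-exercised Gr mutants. Wild-type fish held 47.1, 90.2 and 27.2 CPM with exercise and 20.5, 29.5 and 56.5 CPM without. Non-exercised libraries lie apart, as held for 22.0% of all genes tested, and exercised libraries overlap. The averaged log2 difference was -1.40 (standard error 0.368, adjusted p = 0.0371, edgeR), with the call kept in 4 of 12 omissions. The lymphatic marker lyve1a fell by 2.00 on the log2 scale (standard error 0.434, adjusted p = 0.0169, edgeR), and its call was kept in 12 of 12 omissions. Its levels were low, between 0.139 and 0.989 CPM in Gr mutants and between 1.201 and 4.47 CPM in wild-type fish. Of 11 genes of mural cells, which wrap capillaries and arterioles, 1 fell and 0 rose in Gr mutants in the same averaged comparison, a share close to the 8.59% of all genes called. This was the pericyte gene rgs5a, at 44.1, 28.5 and 19.7 CPM in exercised and 20.6, 32.03 and 40.5 CPM in non-exercised Gr mutants, against 90.4, 60.3 and 53.2 CPM in exercised and 60.4, 74.4 and 48.0 CPM in non-exercised wild-type fish. All 6 mutant libraries lay below all 6 wild-type libraries, with a log2 difference of -1.06 (standard error 0.243, adjusted p = 0.0212, edgeR). The call was kept in 11 of 12 omissions and missed without exercised Gr mutant replicate 2. Here and below, separation of all 6 libraries from all 6 is given only for genes named for passing this test. The share of all genes that separated so was not counted.

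Among 27 hypoxia factors and targets, a list that holds regulators of VEGF-A, the genes that passed the test between genotypes were all lower in Gr mutants. Averaged over exercise levels, 8 of 23 tested genes fell and 0 rose, where 5.02% of all genes fell, and the median log2 difference was -0.78 against 0.06 for all genes. Of the 23, 20 had a negative difference and 3 a positive one. These 3 were ndrg1a, egln3 and ca9, at 0.54, 0.33 and 0.14 (adjusted p = 0.143, 0.628 and 0.868, edgeR). Like the other lists, this list was chosen with earlier results of these data known. The 8 were epas1a and epas1b, which encode HIF-2 alpha subunits, hif1al, annotated as a HIF-1 alpha-like subunit, the HIF partner arnt2, the oxygen sensor gene egln2, and the metabolic genes pdk1, pfkfb4a and pfkfb4b. The largest difference was that of pfkfb4b, an enzyme gene of glycolytic control, at 3.05, 4.61 and 4.99 CPM in exercised Gr mutants, against 47.8, 126 and 15.5 CPM in exercised wild-type fish. In non-exercised fish it held 6.32, 8.56 and 7.02 CPM in Gr mutants, against 14.1, 49.7 and 82.4 CPM in wild-type fish. All mutant libraries lay below all wild-type ones, and the averaged log2 difference was -3.33 (standard error 0.513, adjusted p = 0.00433, edgeR). For hif1al, libraries held 37.5, 27.5 and 45.0 CPM in exercised and 20.6, 18.9 and 56.3 CPM in non-exercised Gr mutants. They held 410, 572 and 87.5 CPM in exercised and 103, 242 and 552 CPM in non-exercised wild-type fish, again with no overlap, and the averaged log2 difference was -3.25 (standard error 0.525, adjusted p = 0.00522, edgeR). The wild-type libraries with the highest and lowest pfkfb4b were also those with the highest and lowest hif1al in exercised fish.

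The averaged count of 8 was 4 without exercised wild-type replicate 2 and 5 without non-exercised wild-type replicate 2 or 3 or any of the exercised Gr mutant replicates, and 10 without non-exercised Gr mutant replicate 3. Calls over all genes moved as well. They were 1379 in the full averaged fit, 683 without exercised wild-type replicate 2 and 1878 without non-exercised Gr mutant replicate 3. The calls of pfkfb4b, hif1al, epas1b and pfkfb4a were each kept in 12 of 12 omissions. In exercised fish alone, 4 of 21 fell (pfkfb4b, hif1al, epas1b and ldha) and 0 rose, where 2.37% of all genes fell, and the median was -0.68. That count was 5 without exercised wild-type replicate 3, 1 and 0 without exercised wild-type replicates 1 and 2, and 2, 0 and 0 without exercised Gr mutant replicates 1, 2 and 3. Over all genes, calls between these groups were 426 in the full fit and between 6 and 508 with 1 library left out. In non-exercised fish, 0 of 23 passed in edgeR's test, and 12 were lower and 0 higher at an unadjusted p under 0.05 (7.34% of all genes lower). DESeq2 called 5 lower there, where it called 2.65% of all genes in either direction. With exercise, 1 of 23 genes rose and 0 fell, where 0.76% of all genes rose. This gene, hif1aa, for a HIF-1 alpha subunit, rose by 1.22 on the log2 scale averaged over genotypes (standard error 0.258, adjusted p = 0.0445, edgeR). It held 3.30, 2.97 and 2.08 CPM in exercised Gr mutants, against 1.95, 0.636 and 1.02 CPM in non-exercised Gr mutants, and 5.10, 4.86 and 4.80 CPM in exercised wild-type fish, against 2.47, 1.65 and 2.14 CPM in non-exercised wild-type fish. Exercised libraries lay above non-exercised ones within each genotype. Groups did not overlap, in either direction, for 16.2% of all genes tested in Gr mutants and 20.5% in wild-type fish. The hif1aa call was kept in 1 of 12 omissions only, that of non-exercised Gr mutant replicate 1.

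**Figure D3:**
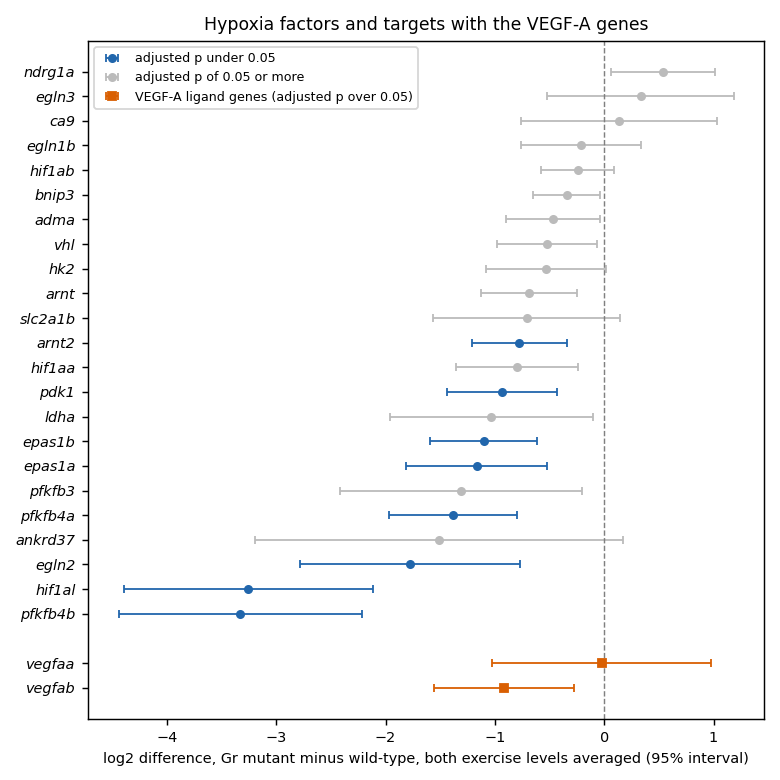
Log2 differences of the 23 tested hypoxia factors and targets and, below them, of vegfaa and vegfab, for Gr mutant minus wild-type fish averaged over exercise levels, with 95% intervals. Of the 23 genes, 20 lie left of the dashed line at 0 and 8 (dark points) passed the adjusted threshold, while vegfab lies at -0.92 and vegfaa at -0.02.

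Among 17 other modulators of angiogenesis, 13 were tested in the averaged comparison of genotypes, and 2 fell and 0 rose in Gr mutants, where 5.02% of all genes fell. Of the 13, 7 had a positive and 6 a negative difference, with a median of 0.21, where all genes had 0.06. The genes with the 2 highest mean levels, thbs2b and cxcl12b, were at 0.21 and 0.26 (adjusted p = 0.475 and 0.629, edgeR). The coactivator gene ppargc1a, whose product induces VEGF-A in mammalian muscle, held 2.72, 1.65 and 0.970 CPM in exercised and 0.886, 2.31 and 2.96 CPM in non-exercised Gr mutants. Wild-type fish held 24.8, 11.9 and 7.35 CPM with exercise and 5.44, 10.5 and 52.7 CPM without. All mutant libraries lay below all wild-type ones, with an averaged log2 difference of -3.25 (standard error 0.581, adjusted p = 0.00786, edgeR). As for rgs5a, the share of all genes that separated so was not counted. In exercised fish alone, ppargc1a was at -3.03 in Gr mutants (adjusted p = 0.0281, edgeR), with the call kept in 2 of 6 omissions. With exercise, ppargc1a was at -0.15 in Gr mutants and -0.64 in wild-type fish (adjusted p = 0.942 and 0.762, edgeR). The paper reports ppargc1a as not differentially regulated. The chemokine receptor gene ackr3b fell by 1.19 on the log2 scale (standard error 0.311, adjusted p = 0.0356, edgeR), with the call kept in 4 of 12 omissions.

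**Figure D4:**
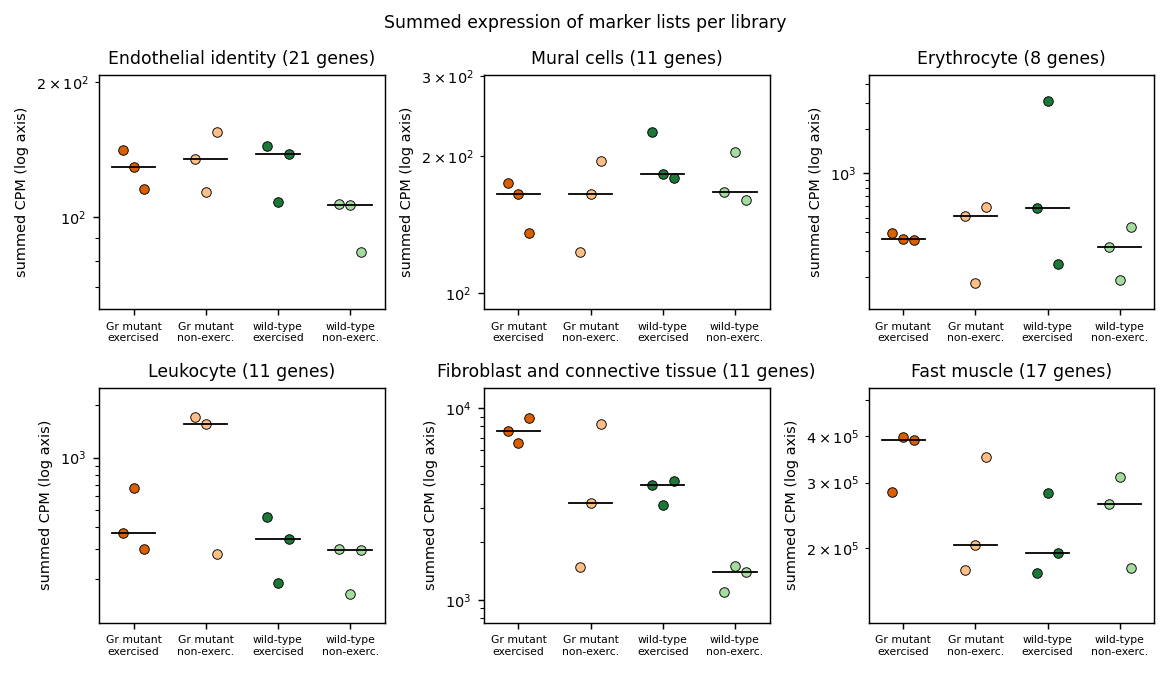
Summed CPM (TMM scaling, log axes) of lists of marker genes in each library, with a line at the median of each group of 3. Leukocyte genes reach 1722 and 1561 CPM in non-exercised Gr mutant replicates 1 and 2 and lie at or below 674 CPM in the other libraries, and erythrocyte genes reach 3104 CPM in exercised wild-type replicate 2.

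Markers of other cell types differed between libraries. The leukocyte list of 11 genes had 11 higher in non-exercised Gr mutants than in non-exercised wild-type fish at an unadjusted p under 0.05 (9.91% of all genes), and 0 past the adjusted threshold, in edgeR's test. Without non-exercised Gr mutant replicate 3, which left the mutant libraries with the highest leukocyte sums, 8 passed this threshold. In that fit 544 of all 14747 genes tested passed, 369 of them higher, against 35 of 15011 and 7 higher with all libraries. The fibroblast and connective tissue list summed to 6601 to 8819 CPM in exercised Gr mutants and 1478 to 8196 CPM in non-exercised Gr mutants, with the top value in replicate 3. It summed to 3130 to 4142 CPM in exercised wild-type fish, against 1097 to 1495 CPM in non-exercised wild-type fish, where 3 of its 11 genes rose with exercise (0.226% of all genes rose) and 0 in any fit with 1 library left out. In Gr mutants relative to wild-type fish, 6 of the 11 rose averaged over exercise levels, where 3.57% of all genes rose, with a median of 0.98 and between 2 (without exercised wild-type replicate 2) and 7 (without non-exercised Gr mutant replicate 1) called with 1 library left out. In that averaged comparison of genotypes, 8 of 23 genes of the hypoxia list and 2 of 13 of the modulator list fell, where 5.02% of all genes fell. Of the arterial, venous and lymphatic list 2 of 11 fell, and of the mural list 1 of 11. In the same order, 3 of 23, 7 of 13, 7 of 11 and 5 of 11 genes of these lists had a positive difference. The erythrocyte list, a measure of blood in the tissue, was at 585, 3104 and 243 CPM in exercised wild-type fish, while all other libraries held between 181 and 591 CPM. In the library with the most erythrocyte transcripts, flt1, flt4, cdh5, tie1 and tek were at their lowest among exercised wild-type fish, vegfaa was at its highest, and vegfab, kdr and kdrl lay between the other libraries. A list of 8 oocyte genes summed to 250.1 CPM in exercised Gr mutant replicate 3 and to at most 23.6 CPM in every other library. That replicate also held the most vegfaa of its group, at 48.8 CPM. Non-exercised Gr mutant replicate 3, with the most vegfaa of all libraries at 60.8 CPM, had an oocyte sum of 1.11 CPM. The part of these cell types in the values of the 9 genes and of the vascular and hypoxia lists was not tested.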

How the data were processed

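White muscle RNA was sequenced as single-end reads of 50 nucleotides from 3 fish per group. Per the submitters' processing notes and the paper's methods, reads were aligned to GRCz10 (Ensembl 80) with TopHat2 2.0.5, filtered with SAMtools 0.1.18 and counted per gene with HTSeq 0.5.3p9. The deposited values used are these raw counts, which the authors left without normalization in their 4 tables. The deposited fold changes and p-values of the authors' own DESeq comparisons were not used, and 0 sample columns were left out.

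Genes were kept where 3 or more libraries of a fit had 10 or more counts, and tested with edgeR 4.0.16 (R 4.3.3) by its quasi-likelihood test after TMM scaling, with Benjamini-Hochberg adjustment over all genes tested and a two-sided threshold of 0.05. Each pair of groups was fitted on its own 6 libraries, and the interaction and averaged contrasts on all 12. All 9 genes passed this filter in every fit. No exact permutation test was run, since 3 libraries a group allow no p below 0.1. Alternatives were DESeq2 1.42.0, other scaling and filters, a replicate block and omission of each library. Replicates of a group were compared by chi-square and none was a copy. The tests were checked on simulated counts.

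The genes and lists were chosen with earlier results of these data known. Other genes are named if they passed the threshold or had the 2 highest mean levels of a pathway list, or were among the 8 most like the receptor genes, not all of which are reported here. Sequences of the genes were not used here.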

Additional observations from a re-analysis of the deposited data

How the results depend on the processing

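The count of called genes among the 9 was 0 in every comparison and 1 under some alternatives. It was 1 (vegfab) between exercised Gr mutants and wild-type fish with DESeq2, at an adjusted p under 0.1 and at an unadjusted p under 0.05. It was 1 (vegfab) averaged over exercise levels with DESeq2, with library totals without TMM, at an adjusted p under 0.1 and at an unadjusted p under 0.05, and 1 (tie1) in non-exercised fish at an unadjusted p under 0.05. With 1 library left out, this count lay between 0 and 1 for the genotypes in exercised fish and averaged, and was 0 in the other comparisons. Log2 differences were followed for all 9 genes in the 4 pairwise comparisons, and for vegfab, cdh5 and tie1 in those over 12 libraries. Of 302 under other settings, 289 kept direction and side of the threshold, 10 reversed and 3 were newly called. With 1 library left out, 283 of 324 did so, 39 reversed and 2 were newly called. The cause of these shifts was not tested.

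Library totals without TMM moved the median of all genes by more than 0.1 in several comparisons, to -0.39 for exercise in Gr mutants. Under that setting vegfaa was at -0.00308 for exercise in wild-type fish, and kdr, flt1, cdh5 and tie1 were at -0.115, -0.259, -0.0301 and -0.0769 for exercise in Gr mutants. Between exercised genotypes, tek was at -0.187 with library totals, -0.00176 without the count filter and -0.0458 with the replicate block. Averaged over exercise levels, cdh5 was at 0.00984 with a minimum of 5 CPM in 3 libraries. With 1 library left out, log2 differences for exercise in wild-type fish ranged from -0.264 to 0.259 for vegfaa, -0.235 to 0.721 for vegfab, -0.578 to 0.321 for kdr and -0.0577 to 0.346 for flt4. For exercise in Gr mutants they ranged from -1.23 to 0.525 for vegfaa, -0.356 to 0.15 for kdrl, -0.11 to 0.266 for flt1, -0.0782 to 0.579 for cdh5 and -0.48 to 0.118 for tek. Between non-exercised genotypes they ranged from -0.717 to 0.657 for vegfaa, -0.146 to 0.414 for kdrl, -0.274 to 0.0849 for flt1, -0.142 to 0.415 for flt4, -0.329 to 0.384 for cdh5 and -0.00589 to 0.22 for tek. Between exercised genotypes they ranged from -1.11 to 0.121 for vegfaa, -0.723 to 0.205 for kdr, -0.33 to 0.0413 for flt1, -0.362 to 0.0093 for cdh5 and -0.311 to 0.278 for tek. The interaction ranged from -0.56 to 0.146 for cdh5 and -0.668 to 0.264 for tie1, exercise averaged over genotypes from -0.402 to 0.0707 for vegfab, and the averaged genotype difference from -0.243 to 0.0943 for cdh5.

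Same-numbered replicates did not deviate together: their correlations lay between -0.287 and 0.227, so the numbers do not pair the fish. With the replicate block, 0 of the 9 genes were called in any comparison, and vegfaa between non-exercised genotypes was at -0.268. The counts over all genes were 4, 0, 0 and 223 under the block, against 54, 0, 35 and 426 without it, for exercise in wild-type fish, exercise in Gr mutants, and the genotypes in non-exercised and exercised fish. Among the alternatives chosen after seeing the data, the 4 hypoxia genes that fell between exercised genotypes became 0 with the block (median log2 difference -0.66, against -0.68 without it), 2 in a fit of all 12 libraries and 6 with DESeq2. In that comparison DESeq2 tested 26 genes of the list and called 3.8% of all genes in either direction. The averaged count of 8 lay between 7 and 9 under all other settings than leaving out a library. DESeq2 called 405, 128, 686 and 975 genes in the same comparisons. Counts of the 9 genes reached from 12 (flt4) to 1137 (vegfab) per library.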
